A study of Rattus norvegicus with 18 samples.

Results

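Purinergic receptors are the cell-surface receptors for extracellular nucleotides. The 10 receptor genes described here are the ion channels P2rx3, P2rx4, P2rx5, P2rx6 and P2rx7 and the G protein-coupled receptors P2ry1, P2ry2, P2ry6, P2ry12 and P2ry14. They were taken by their RefSeq symbols from the count table of the series, in which 15075 RefSeq identifiers have reads, and 9 of the 10 were measured. P2rx7 is among them because it was lower after injury in these same libraries, so that its difference between naïve and bPYX+GFP rats is a description and is given no test. RNA-seq of poly(A) RNA was made on the dorsal root ganglia (DRG) of segments C6-C8 in 18 adult Lister hooded rats, 6 in each of 3 groups. One library holds the pooled ganglia of the treated side of 1 rat. Naïve rats were unoperated and untreated. In the other groups both corticospinal tracts were cut in the medullary pyramids (bilateral pyramidotomy, bPYX), and on the day after injury the forelimb flexors of 1 side were injected with an adeno-associated viral vector of serotype AAV1. The vector carried green fluorescent protein in bPYX+GFP rats and human neurotrophin-3 (NT3) in bPYX+NT3 rats, in both under the CMV promoter, which is not specific to a cell type. Ganglia of these rats were taken 10 weeks after injury. No group had the injury without a vector or a vector without the injury, so the injury and the GFP vector cannot be told apart.

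ATP released from stressed, active or cut cells is broken down outside the cell to ADP, AMP and adenosine. P2X receptors are trimeric channels that ATP opens to cations, while P2Y receptors answer to ATP, ADP, UTP, UDP or UDP-sugars through Gq or Gi proteins. In sensory ganglia P2X3 is known from small nociceptive neurons and P2X7 from satellite glial cells. P2X4, P2Y6 and P2Y12 are known from macrophages or from microglia, which are cells of the brain and spinal cord. Purinergic signalling in the DRG is known for its part in pain and in the exchange between neurons and the glial cells around them.

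The promoters of 3 members are shown because the results turn on P2rx7 and P2ry2, and because P2rx4 is the neighbour of P2rx7 on chromosome 12 with 0 protein-coding genes between them. Each sequence is the 250 bases before the annotated start of the gene in RefSeq on build GRCr8, on the minus strand and written in the sense of the gene, with GC boxes (GGGCGG on either strand) in capitals. The positions are chr12:39594923-39595172 for P2rx7, chr12:39523090-39523339 for P2rx4 and chr1:164779489-164779738 for P2ry2.
P2rx7: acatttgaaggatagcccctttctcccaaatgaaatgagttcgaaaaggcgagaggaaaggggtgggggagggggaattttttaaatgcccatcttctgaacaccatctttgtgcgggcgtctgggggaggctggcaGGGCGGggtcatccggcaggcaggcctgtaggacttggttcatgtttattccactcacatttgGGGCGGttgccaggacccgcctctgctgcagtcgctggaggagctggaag
P2rx4: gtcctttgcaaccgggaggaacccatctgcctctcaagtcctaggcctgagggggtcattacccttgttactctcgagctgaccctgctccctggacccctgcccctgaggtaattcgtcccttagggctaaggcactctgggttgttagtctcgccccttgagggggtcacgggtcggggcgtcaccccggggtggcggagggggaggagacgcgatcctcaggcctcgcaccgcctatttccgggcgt
P2ry2: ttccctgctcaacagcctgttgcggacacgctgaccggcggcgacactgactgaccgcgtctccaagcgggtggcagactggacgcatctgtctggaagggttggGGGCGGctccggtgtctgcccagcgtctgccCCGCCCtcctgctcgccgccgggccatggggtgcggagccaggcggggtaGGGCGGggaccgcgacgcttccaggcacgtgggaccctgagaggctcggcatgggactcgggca
The P2rx7 promoter holds 2 GC boxes, the P2ry2 promoter 3 and the P2rx4 promoter 0. A GC box occurs in 30.5% of the 33469 rat promoters of the same length. The GC content is 56% for P2rx7, 64% for P2rx4 and 71.2% for P2ry2, against a median of 51.2% over all promoters. None of the 3 sequences holds a TATA box (TATAAA on either strand, present in 12.9% of promoters) or an AP-1 site (TGANTCA, in 6.34%). The P2rx7 and P2rx4 promoters each hold 1 copy of GAGGAA, the core letters bound by the myeloid factor PU.1, which 23.3% of promoters hold. These matches describe the sequence alone.

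Library depth was 10057787 to 16002410 read-pairs on genes. A normalized count is the count scaled to a library of average size, with library sizes set by TMM. Levels of different receptors are not compared, because transcript lengths were not used here. The 14 neuron markers covered a wide range. Nefl had a median of 34990 normalized counts, Avil 7606, Tubb3 6884, Scn10a 5278 and Isl1 687. Mrgprd was low (54.4), as were Calca (49.2) and Snap25 (1.15), each of which has several counted transcripts. Rat 57 of the bPYX+GFP group and rat 11 of the bPYX+NT3 group stood apart from the rest, with a root mean square deviation from their group mean of 0.454 and 0.410 on the log2 scale over genes, against 0.179 to 0.290 in the other 16 rats. They also had the lowest shares of reads on no annotated feature, 31.7% and 30.8%. The titles recorded with the deposited per-rat counts name another group than the table of the series for 17 of 18 rats. The groups used are those of the table headings, which are also the groups the study used.

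P2X7 needs more ATP to open than the other P2X channels, and its opening is known to drive release of interleukin-1β. P2rx7 (NM_019256) had 459, 575 and 600.4 normalized counts in naïve rats (lowest, median and highest). The corresponding values were 389.7, 441 and 451 in bPYX+GFP rats and 414, 482 and 633 in bPYX+NT3 rats. Every bPYX+GFP rat lay below every naïve rat, while the bPYX+NT3 rats overlapped both groups. The mean was 558 ± 53.3 for the naïve group, 434 ± 22.7 for bPYX+GFP and 498 ± 79.6 for bPYX+NT3 (SD, n = 6 each). The log2 fold change of P2rx7 was -0.36 for bPYX+GFP against naïve. It was -0.17 for bPYX+NT3 against naïve and 0.20 for bPYX+NT3 against bPYX+GFP. No SE is given for this gene, because the SE used here is derived from the test statistic. These 3 values share rats with each other and are set side by side without a test.

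The bPYX+NT3 rats were spread more widely than either other group for P2rx7. Rat 17 had 633 normalized counts, above all naïve rats, and rat 2 had 541. Rats 11 and 23 had 485 and 479.6, and rats 40 and 39 had 433 and 414, below all naïve rats. Rats 57 and 11 did not set the level of their groups for this gene, since rat 57 had 446. The lowest naïve rat (rat 45, 459) and the highest bPYX+GFP rat (rat 21, 451) were the nearest pair across the gap between these groups. Among all 11601 genes tested between these groups, 0.198% were lower in bPYX+GFP rats with no overlap, and since P2rx7 was picked by this contrast nothing is read from that share. When the recorded titles set the groups, the log2 fold change was -0.01.

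**Figure D1:**
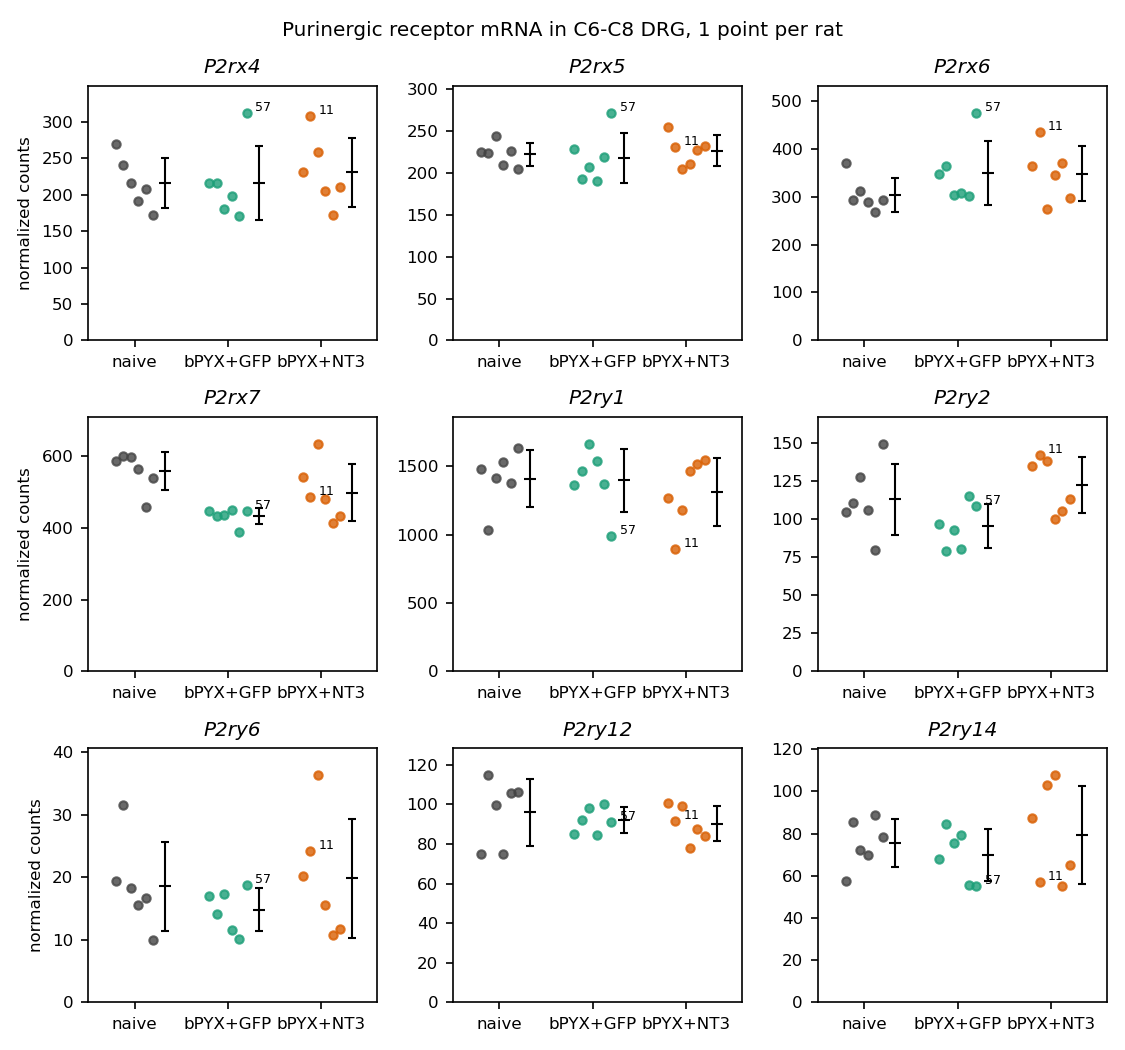
Normalized counts of the 9 measured receptors (y axis, from 0) by group (x axis: naïve, bPYX+GFP, bPYX+NT3), 1 point per rat, with the group mean and SD in black and rats 57 and 11 numbered. For P2rx7 the bPYX+GFP rats lie between 389.7 and 451, all below the naïve rats, whose lowest value is 459.

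Markers of the cells that are known to carry P2X7 were measured in the same libraries. The summed level of the 5 satellite glia markers ran from 830 to 975 CPM (counts scaled to the total of the library) in naïve rats, from 797 to 919.6 in bPYX+GFP rats and from 749 to 887 in bPYX+NT3 rats. Of these markers 4 could be tested for bPYX+GFP against naïve, and 0 passed edgeR's test at an unadjusted p under 0.05. Their median log2 fold change was -0.17, with 3 below 0 and Glul, glutamine synthetase, at 0.11, and the median of the summed level was 847 CPM in naïve rats and 867 with GFP. The summed level of the 7 Schwann cell markers ran from 3507 to 4743 CPM in naïve rats, from 3097 to 4075 with GFP and from 3438 to 4092 with NT3. All 7 had a fold change below 0 for bPYX+GFP against naïve (median -0.30, against 0.01 over all genes). Pmp22, a protein of compact myelin, was the 1 of them that passed (-0.31, SE 0.106, adjusted p = 0.9998). Macrophage markers summed to 115 to 235 CPM in naïve rats, 86.1 to 177 with GFP and 106 to 255 with NT3. Of 12 macrophage markers 11 were tested, and all 11 were below 0 for bPYX+GFP against naïve (median -0.10, against 0.01 over all genes). Among them 1 passed, the chemokine receptor gene Cx3cr1 (-0.47, SE 0.203, adjusted p = 0.9998), while Ptprc, with several counted transcripts, had 0 reads. The 0 of 4, 1 of 7 and 1 of 11 markers that passed stand beside 3.25% of the 11601 genes tested. The median of the summed macrophage level was 147 CPM in naïve rats and 155 with GFP. The fold changes of all Schwann cell and macrophage markers tested thus had the sign of P2rx7, while the median summed levels of satellite glia and macrophage markers did not. These measures differ, since a fold change takes each marker alone, while a sum follows its most abundant markers. In satellite glia these were Glul (median 5365 normalized counts) and Cdh19 (4474), against 903 for Fabp7. The sign of P2rx7 was also found in other marker lists. For bPYX+GFP against naïve 0 of 5 mast cell markers were above 0 (median -0.35), and 1 of 8 fibroblast and mural markers (median -0.17). In contrast 13 of 14 neuron markers and 5 of 6 endothelial markers were above 0. The part of satellite glia, Schwann cells and macrophages in the difference of P2rx7 was not tested. In bulk tissue fewer cells of a type and less RNA per cell cannot be told apart.

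The 8 other measured members were tested by edgeR's quasi-likelihood test. For bPYX+GFP against naïve 0 of 8 passed at an unadjusted p under 0.05, where 3.25% of the 11601 genes tested passed. The number was 0 of 8 for bPYX+NT3 against naïve, beside 6.01% of 11693 genes, and 1 of 8 for bPYX+NT3 against bPYX+GFP, beside 1.73% of 11623 genes. The member that passed was P2ry2, which was higher with NT3. Of all genes 1.08% passed and were higher. After Benjamini-Hochberg adjustment over all genes tested, edgeR called 0 genes (0.0%) in each comparison, members included. The likelihood ratio test then called 13 genes and DESeq2 16 for bPYX+GFP against naïve, and both called 0 in the other comparisons. The median log2 fold change of the 8 members was -0.04, 0.07 and 0.08 in the order of the comparisons above, against 0.01, 0.00 and 0.00 over all genes. The SE of their fold changes ran from 0.077 to 0.322. At this depth and with 6 rats per group, even a difference larger than its SE could go uncalled. For bPYX+GFP against naïve, P2rx6 had 0.208 (SE 0.122) and did not pass.

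**Figure D2:**
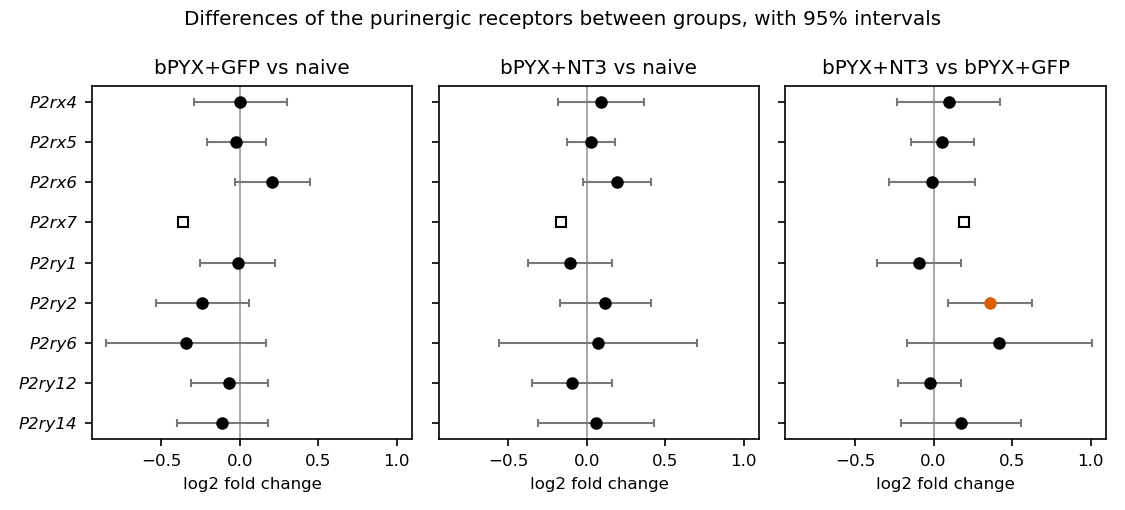
Log2 fold change of each receptor (x axis) in the 3 comparisons, with 95% intervals for the 8 members that were tested and an open square without interval for P2rx7, which was picked by its fall. The orange point is P2ry2 for bPYX+NT3 against bPYX+GFP, whose interval runs from 0.09 to 0.63, while the other 23 intervals include 0.

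P2Y2 is a Gq-coupled receptor that ATP and UTP activate about equally. P2ry2 (NM_017255) had 80.03, 109 and 149 normalized counts in naïve rats (lowest, median and highest), 79.1, 95.1 and 116 in bPYX+GFP rats and 100.5, 124 and 143 in bPYX+NT3 rats. All 6 bPYX+NT3 rats were above the bPYX+GFP median, and 3 of them (rats 2, 11 and 17) were above every bPYX+GFP rat, but the groups overlapped. With NT3 against GFP the log2 fold change was 0.36 (SE 0.136, edgeR p = 0.0193, adjusted p = 0.851, two-sided exact permutation p = 0.0281). The unadjusted p was under 0.05 with each of the 12 rats left out in turn (0.31 to 0.42), and also without rats 11 and 57 together (0.36). When the recorded titles set the groups, the difference was 0.16 and did not pass. For bPYX+GFP against naïve the difference was -0.24 (SE 0.152, exact permutation p = 0.160), and for bPYX+NT3 against naïve 0.12 (SE 0.148, exact permutation p = 0.435). The comparisons share the bPYX+GFP rats, so the low value of this group enters both the first and the second. The bPYX+GFP value against naïve was -0.32 without naïve rat 45 and then passed at an unadjusted p under 0.05. All these values fail the adjustment.

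P2Y6 answers to UDP, and P2ry6 (NM_057124) lies next to P2ry2 on chromosome 1. It was the member with the fewest reads, 8 to 41 per rat, with a coefficient of variation of 38.5% in naïve rats, 23.1% with GFP and 48.2% with NT3. Its normalized counts were 9.96, 17.5 and 31.6 in naïve rats (lowest, median and highest), 10.2, 15.6 and 18.7 with GFP and 10.8, 17.9 and 36.4 with NT3. Rat 17, which was the highest of its group for P2rx7, was also the highest for P2ry6. The log2 fold change was 0.42 with NT3 against GFP (SE 0.300, exact permutation p = 0.318) and -0.34 for bPYX+GFP against naïve (SE 0.260, exact permutation p = 0.320). At this depth the 95% interval of the first runs from -0.17 to 1.01, and its value without rat 17 was 0.17.

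P2Y1 is the Gq-coupled ADP receptor. P2ry1 (NM_012800) had 1031, 1446 and 1630.2 normalized counts in naïve rats (lowest, median and highest), 986, 1416 and 1660.1 in bPYX+GFP rats and 892, 1365 and 1544 in bPYX+NT3 rats. The 3 groups covered nearly the same range, and the lowest rats of the injured groups were rats 57 and 11. The log2 fold changes were -0.01 (SE 0.122), -0.11 (SE 0.135) and -0.09 (SE 0.138) for bPYX+GFP against naïve, bPYX+NT3 against naïve and bPYX+NT3 against bPYX+GFP. The smallest exact permutation p of these was 0.470.

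P2Y12 is the Gi-coupled ADP receptor that antiplatelet drugs block, and P2Y14 is the Gi-coupled receptor for UDP-glucose. Their genes lie close together on chromosome 2, with 2 protein-coding genes between them. P2ry12 (NM_022800) had 75.1, 103 and 115 normalized counts in naïve rats, 84.3, 91.6 and 100.3 in bPYX+GFP rats and 77.7, 89.6 and 100.6 in bPYX+NT3 rats (lowest, median and highest). All 12 injured rats were below the naïve median, but naïve rats 41 and 44 were below all of them. Its log2 difference from naïve rats was -0.07 with GFP (SE 0.125, exact permutation p = 0.658) and -0.10 with NT3 (SE 0.130, exact permutation p = 0.528). P2ry14 (NM_133577) had 57.5, 75.3 and 88.8 normalized counts in naïve rats, 55.3, 71.9 and 84.6 with GFP and 55.1, 76.2 and 108 with NT3. In the bPYX+NT3 group rats 2, 17 and 23 had 87.3 to 108 and rats 11, 39 and 40 had 55.1 to 65.0, so its SD (23.3) was the largest of the 3 groups. With NT3 against GFP its log2 fold change was 0.18 (SE 0.195, exact permutation p = 0.474).

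Among the other P2X channels, P2X6 hardly forms channels on its own and is known mainly as a partner of other subunits. P2rx6 (NM_012721) had 267, 293 and 371 normalized counts in naïve rats (lowest, median and highest), 301, 328 and 474 in bPYX+GFP rats and 275, 354 and 436 in bPYX+NT3 rats. All 6 bPYX+GFP rats and 5 of 6 bPYX+NT3 rats were above the naïve median, with rats 57 and 11 the highest of their groups. The log2 fold change was 0.21 for bPYX+GFP against naïve (SE 0.122, edgeR p = 0.110, exact permutation p = 0.139) and 0.19 for bPYX+NT3 against naïve (SE 0.112, edgeR p = 0.105, exact permutation p = 0.145), and both use the same naïve rats. Without rat 57 the first value was 0.09, and without naïve rat 41 it was 0.27 and passed at an unadjusted p under 0.05. The second value also passed without naïve rat 41 (0.26) or without rat 17 (0.27). With NT3 against GFP it was -0.01 (SE 0.139).

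P2X4 is the ATP channel known from microglia, macrophages and secretory organelles, and P2X5 is an ATP channel known from large sensory neurons and muscle. P2rx4 (NM_031594) had 172, 211 and 269 normalized counts in naïve rats, 170.1, 207 and 312 in bPYX+GFP rats and 172, 221 and 307 in bPYX+NT3 rats (lowest, median and highest). Rats 57 and 11 were again the highest of the injured groups, and the groups otherwise covered one range. For bPYX+GFP against naïve its log2 fold change was 0.00 (SE 0.151), with a 95% interval from -0.29 to 0.30, and was -0.14 without rat 57. Its neighbour P2rx7 had -0.36 in the same comparison, and the difference between the neighbours was not tested. P2rx5 (NM_080780) was among the steadiest members, with a coefficient of variation of 6.18% in naïve rats. It had 205, 225 and 244 normalized counts in naïve rats, 190.0, 213 and 271 with GFP and 204, 229 and 255 with NT3. Its differences were -0.02 (SE 0.096), 0.03 (SE 0.077) and 0.05 (SE 0.103) in the order bPYX+GFP against naïve, bPYX+NT3 against naïve and bPYX+NT3 against bPYX+GFP.

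P2X3 is the ATP channel of nociceptive neurons. P2rx3 has several transcripts in RefSeq, and no level can be given for it. Its coding identifiers NM_001270621 and NM_031075 had 0 reads in 18 rats, and its non-coding identifier NR_073054 had 3. A total of 0 reads allows a level of up to 3 reads over the 18 libraries, for counting error only. Reads that fall on transcripts listed separately are ambiguous to the counting program, and 26.9% of the 506 symbols with more than 1 identifier had 0 reads in all rats, against 11.5% of the 15732 symbols with 1 identifier. The 0 reads thus do not measure the level of P2rx3 in the ganglion. Nociceptors were present, since Scn10a, their sodium channel, was abundant, while Mrgprd, another neuron marker, had a median of 54.4 normalized counts. Which of these neurons carry P2rx3 was not measured.

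**Figure D3:**
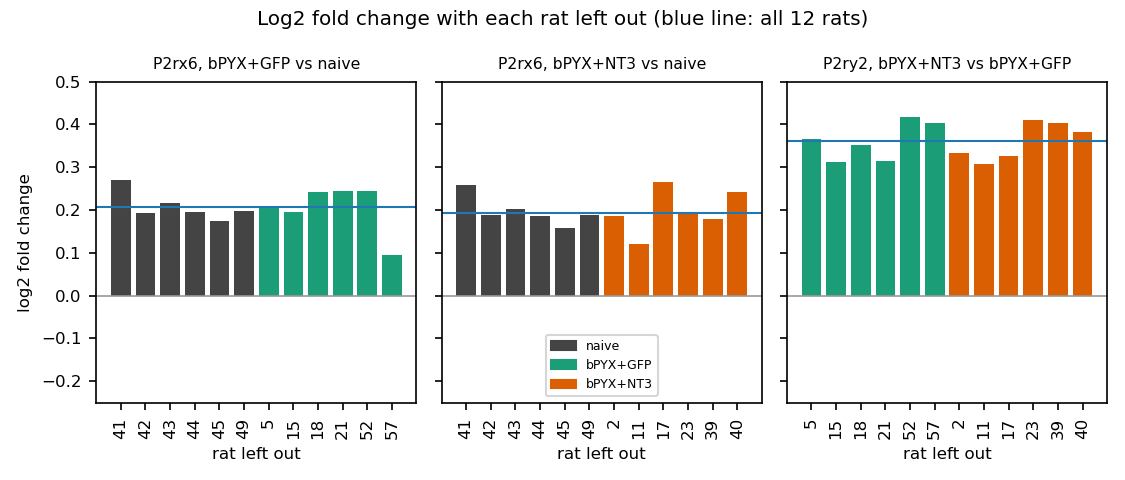
Log2 fold change (y axis) of P2rx6 (bPYX+GFP and bPYX+NT3, each against naïve) and of P2ry2 (bPYX+NT3 against bPYX+GFP), refitted without 1 rat at a time (x axis, bars coloured by the group of the rat left out), with the value from all 12 rats as a blue line. P2ry2 lies between 0.31 and 0.42, while P2rx6 comes to 0.09 without rat 57 in the first panel and to 0.12 without rat 11 in the second.

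The other genes of purinergic signalling were taken from 5 lists. For bPYX+NT3 against naïve 2 of 45 tested genes (4.44%) passed at an unadjusted p under 0.05, beside 6.01% of all genes, so the share is near that of all genes. For bPYX+GFP against naïve 0 of 44 passed, beside 3.25% of all genes. The number was 0 of 45 for bPYX+NT3 against bPYX+GFP, beside 1.73%. Among the other nucleotide and adenosine receptors, 6 of 9 genes could be tested, and 1 was called, higher in bPYX+NT3 than in naïve rats. It was Adora1, the Gi-coupled adenosine receptor that dampens transmitter release from sensory endings. Its normalized counts were 78.6, 105 and 149 in naïve rats (lowest, median and highest), 87.8, 100.1 and 226 with GFP and 120.1, 132 and 261 with NT3. The difference was 0.51 (SE 0.215, edgeR p = 0.0324, adjusted p = 0.607, exact permutation p = 0.0563), and the groups overlapped. All 6 bPYX+NT3 rats were above the naïve median. Rat 11 was the highest of its group, and the difference was 0.30 without it and no longer passed. With rat 44, 45, 49 or 2 left out instead, the unadjusted p was also over 0.05.
Among the genes of ATP release and nucleoside transport, 9 of 13 could be tested for bPYX+NT3 against naïve and 1 was called, Panx2, a pannexin of neurons. It had 209, 245 and 285 normalized counts in naïve rats, 229.7, 239 and 501 with GFP and 245, 272 and 519 with NT3. Its difference with NT3 against naïve was 0.38 (SE 0.170, edgeR p = 0.0411, adjusted p = 0.607, exact permutation p = 0.0758). Without rat 11 it was 0.19 and no longer passed, and the unadjusted p was also over 0.05 with rat 43, 44, 45, 49 or 2 left out. With the groups of the recorded titles both genes turned direction (-0.31 for Adora1 and -0.19 for Panx2). With the share of reads on no feature in the model, Adora1 had 0.24 and still passed, and Panx2 had 0.17 and did not. Gja1, the connexin of satellite glial gap junctions and the most abundant of this list, did not pass in any comparison, with fold changes of 0.05, 0.06 and 0.01.

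The counts of calls in the following lists stand beside 3.25%, 6.01% and 1.73% of all genes for bPYX+GFP against naïve, bPYX+NT3 against naïve and bPYX+NT3 against bPYX+GFP. In lists this short, 0 calls say little about the genes. The enzymes that remove extracellular nucleotides or handle adenosine showed 0 of 13 tested genes called in each of the 3 comparisons. Their median fold changes were 0.04, 0.02 and -0.03. Adk, adenosine kinase, the most abundant of them, had a mean of 2263 ± 125 normalized counts in naïve rats, 2378 ± 170.0 with GFP and 2283 ± 141 with NT3 (SD, n = 6 each). The genes from P2X7 to the inflammasome, which cuts and releases interleukin-1β, also had 0 of 6 tested genes called in each comparison. For bPYX+GFP against naïve their fold changes ran from -0.10 to 0.17, with a median of -0.02 beside the -0.36 of P2rx7. Their SEs ran from 0.184 (Il18) to 0.359 (Il1b), so a change of the size of P2rx7 could have gone uncalled. Il1b had 5 to 48 reads per rat. For bPYX+NT3 against naïve and against bPYX+GFP the medians were 0.22 and 0.15, with ranges from -0.14 to 0.54 and from -0.12 to 0.64. Casp1, the protease of the inflammasome, had 65.0, 105 and 174 normalized counts in naïve rats, 73.2, 106 and 137 with GFP and 63.2, 80.5 and 188 with NT3. The G proteins, phospholipases and calcium release channels of P2Y signalling gave 0 of 11 tested genes called in each comparison, with Gnai3 the most abundant (-0.04, -0.11 and -0.07). Itpr1, Panx1, P2rx1 and Adora3 had no usable reads, each with more than 1 counted transcript.

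**Figure D4:**
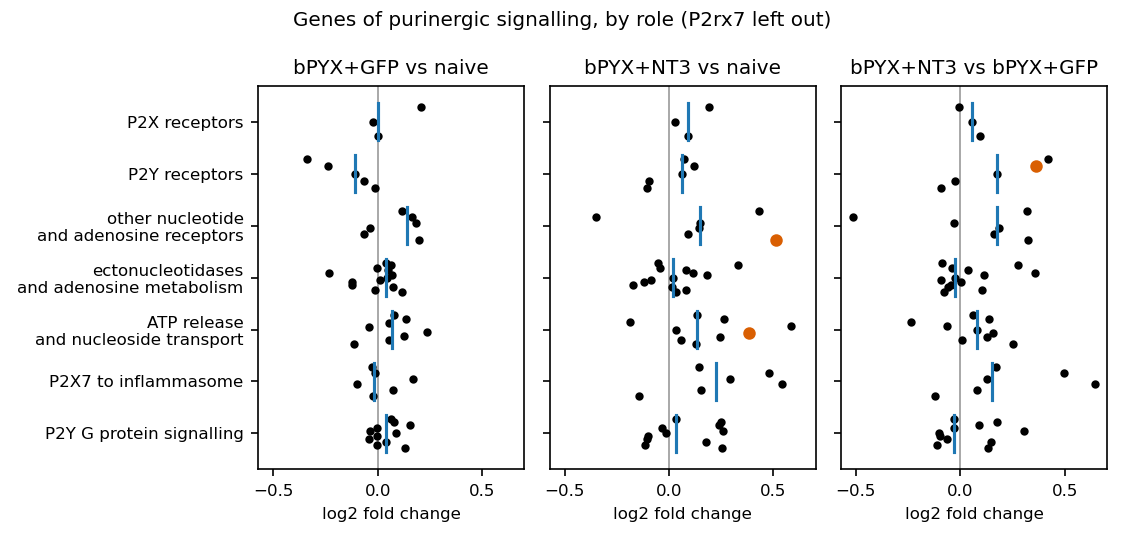
Log2 fold change (x axis) of each tested gene of purinergic signalling, by role (y axis), in the 3 comparisons, with P2rx7 left out, the median of each list as a blue line and genes with an unadjusted p under 0.05 in orange. The 3 orange points are P2ry2 (0.36, NT3 against GFP), Adora1 (0.51, NT3 against naïve) and Panx2 (0.38, NT3 against naïve).

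For each member the genes with the most similar level across the 18 rats were found. Likeness is given as Pearson's r of log2 CPM over 18 rats, among 11434 genes, as a description in which rats 11 and 57 weigh on every gene. P2rx7 was most like Srgap2 (0.87), Bach1, a haem-responsive repressor (0.84), and Gltp, a glycolipid transfer protein (0.82). P2rx4 was most like Ifitm2 (0.95), Ctsa, a lysosomal protease (0.94), and Tmem109 (0.94). P2rx6 was most like neuronal genes, namely Nefh, the heavy neurofilament of large neurons (0.88), Kcnip3 (0.88) and Pacsin1 (0.88), and P2rx5 was most like Pde4c (0.85), Coro6 (0.83) and Sptb (0.82). P2ry1 was most like Mtmr2, a phosphatase of Schwann cells and neurons (0.94), Larp4b (0.92) and Dyrk1a (0.92). Genes like P2ry6 included Cyth4, known from blood cells (0.91), and Adcy4 (0.89). The likeness was weaker for P2ry2 (Fam83f 0.80, Cnn3 0.77, Tlcd1 0.77) and P2ry12 (Tnfaip1 0.77, Vangl1 0.73, Adpgk 0.67), and P2ry14 was most like Tent5a (0.85), Bcl2l11 (0.84) and Iqgap1 (0.81).

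The remaining marker lists gave the cell types in the libraries, and their counts stand beside 3.25%, 6.01% and 1.73% of all genes that passed in the order of the comparisons above. Neuron markers summed to 7083 to 8498 CPM in naïve rats, 7437 to 10731 with GFP and 7502 to 11132 with NT3. Their fold changes against naïve were above 0 in 13 of 14 with GFP (median 0.10) and in 11 of 14 with NT3 (median 0.18), and 1 of 14 passed with NT3, Avil, an actin-binding protein of sensory neurons (0.19, SE 0.077, adjusted p = 0.607). For bPYX+NT3 against bPYX+GFP, where P2ry2 was called, 1 of 4 satellite glia markers passed. It was Kcnj10, the potassium channel of these cells, which was higher (0.42, SE 0.153, adjusted p = 0.851). The others were Fabp7 (0.13), Glul (-0.10) and Cdh19 (-0.15), and the median was 0.01. In the same comparison 0 of 11 macrophage markers passed, with a median of 0.20. Mast cell markers summed to 75.7 to 88.5 CPM over all rats. Most of this sum was Kit, with 17017 reads in 18 rats against 711 for Cpa3, so it does not follow the other markers. Kit had fold changes of -0.03, -0.003 and 0.03 in the order of the comparisons above. In that order 2, 3 and 1 of the 5, 5 and 4 tested mast cell markers passed, all of them lower. Fold changes above 0 were found in 0, 0 and 1 of those tested. Cpa3, a mast cell protease, was lower in each (-0.35, -0.88 and -0.53). With NT3 against naïve the others that passed were Ms4a2 (-0.73) and Cma1 (-0.71). Of 8 fibroblast and mural markers 2 passed in each injured group against naïve rats, all of them lower. These were Col1a1, a fibrillar collagen, in both, with Lum in bPYX+GFP and Dcn in bPYX+NT3 rats. Fold changes against naïve were above 0 in 1 of 8 with GFP and in 3 of 8 with NT3. For bPYX+NT3 against bPYX+GFP 1 of 8 passed, Acta2, which was higher. Of 6 endothelial markers 1 passed, Flt1, higher in bPYX+NT3 than in naïve rats, and 6 of 6 were above 0 in that comparison. The Schwann cell marker Pmp22 was also lower for bPYX+NT3 against naïve (-0.31). Of 4 tested T cell markers 0 passed in each comparison. Markers of spinal cord glia and skeletal muscle summed to 10.5 to 15.7 CPM. Of 3 tested with NT3 against naïve 1 passed, Mog, which was lower. No marker passed the adjustment, and the markers named here were chosen after their values were seen.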

How the data were processed

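Poly(A) RNA of 18 rats was sequenced in 50 bp paired-end reads. Reads were mapped by the authors with TopHat2 (Rnor_6.0) and duplicates were removed with Picard. The deposited values are raw counts, made by HTSeq for each RefSeq transcript, with no normalization. The deposited per-rat counts equalled the column of the same rat in the series table in 18 of 18 rats. Reads assigned to no feature (30.8 to 34.6%) and ambiguous reads (2.79 to 3.41%) stayed out of library sizes and tests, and reads on several locations were not counted, so genes with near-identical copies or several listed transcripts are uncertain. Symbols came from the RefSeq table of GRCr8, which named 14193 of 15075 identifiers and was used for no coordinate of the counts.

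Pairs of groups were each fitted in R 4.3.3 with edgeR 4.0.16 (TMM, estimateDisp, glmQLFit, glmQLFTest, no covariate), keeping genes that exceeded 10 reads in 6 or more of the 12 rats. Benjamini-Hochberg adjustment covered all genes tested. SE is the absolute log2 fold change divided by the square root of F, and 95% intervals are 1.96 SE to each side. For single members a two-sided exact permutation test used TMM log2 CPM (prior count 2), for which 6 rats against 6 allow no p below 0.00216. Each library is 1 rat. The members and lists were chosen with earlier results of these data known. All members are named, with pathway genes that had an unadjusted p under 0.05 or were the most abundant of their list, and the 3 genes most like each member among those with over 10 reads in 12 or more of 18 rats.

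The alternatives comprised DESeq2 1.42.0, the likelihood ratio test of edgeR, other scalings and filters, 1 fit over the 3 groups, the no-feature share as a covariate, a prior count of 0.5, each rat left out, and the groups of the recorded titles. The following were added after seeing the data: rats 11 and 57 left out together, the replicate number as a block under the groups used, and all alternatives for Adora1 and Panx2. On simulated data for bPYX+GFP against naïve rats (11572 genes, 197 of the tested genes changed by 1 on the log2 scale), glmQLFTest recovered 89.8% with 9 false calls, the likelihood ratio test 92.4% with 30 and DESeq2 91.4% with 33. The tested members differed by 0.42 at most, so these rates do not give the power at that size. The simulated noise was drawn for each gene alone, with no library standing apart as rat 57 did. Python 3.11.15, numpy 2.4.6, pandas 2.3.3 and matplotlib 3.10.9 were used for tables and figures. Small RNAs were not analysed here. The results of 2 genes are not reported here.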

Additional observations from a re-analysis of the deposited data

Results flagged for a closer look

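In 6 of the 45 gene and group combinations checked (the 9 members and the 6 named pathway genes in 3 groups), 1 rat lay farther from the others than Dixon's 95% limit for 6 samples allows, where chance flags about 1 in 20. Rat 57 was the high rat of the bPYX+GFP group for P2rx4 (312 normalized counts, others 170.1 to 216), for P2rx6 (474, others 301 to 364), for Adora1 (226, others 87.8 to 134) and for Panx2 (501, others 229.7 to 286). Rat 11 was the high rat of the bPYX+NT3 group for Adora1 (261, others 120.1 to 161). Both are the libraries that stood apart over all genes. Rat 52 was the low rat of the bPYX+GFP group for P2rx7 (389.7, others 433 to 451), which describes that rat and is no test of the gene.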

How the results depend on the processing

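Over the alternatives set out at the start, 502 fold changes of members kept their direction and, where tested, their side of the threshold. Of the others 34 changed sign, 5 came to pass an unadjusted p under 0.05, 1 no longer passed, and 2 of P2rx7 moved. P2rx7 has no test and was counted as kept when it changed by less than its pooled SD within groups. For the groups of the recorded titles this tally holds only P2rx7 and, with NT3 against GFP, P2ry2. It does not cover the other members under those groups. For bPYX+GFP against naïve the number of other members that passed became 1 with the covariate, the share of reads on no feature (P2rx6, 0.18). It ran from 0 to 1 with each rat left out, there (P2rx6 without rat 41, P2ry2 without rat 45) and for bPYX+NT3 against naïve (P2rx6 without rat 41 or 17). With NT3 against GFP it became 0 with the groups of the recorded titles, with or without the replicate block, and stayed 1 with each rat left out. With those titles P2rx7 had -0.01 for bPYX+GFP against naïve, 0.0078 for bPYX+NT3 against naïve (its sign changed) and 0.02 with NT3 against GFP. The other changes of sign were in values that passed no test, except Adora1 and Panx2, and the cause was not tested. For bPYX+GFP against naïve P2rx4 became -0.0040 with library size alone, -0.0018 with no filter, -0.041 with the covariate and -0.017 with the replicate block. With a rat left out it ran from -0.14 to 0.070, P2rx5 from -0.10 to 0.016 and P2ry1 from -0.093 to 0.068. For bPYX+NT3 against naïve the covariate gave -0.065 for P2rx4, 0.014 for P2ry1 and -0.14 for P2ry6. With a rat left out P2rx4 ran from -0.0078 to 0.17, P2rx5 from -0.0035 to 0.068, P2ry6 from -0.16 to 0.31 and P2ry14 from -0.042 to 0.15. With NT3 against GFP, library size alone gave 0.023 for P2rx6 and 0.014 for P2ry12, the covariate -0.049 for P2rx4 and 0.042 for P2ry1, and leaving out rats 11 and 57 gave 0.024 for P2rx6. With a rat left out P2rx4 ran from -0.011 to 0.23, P2rx6 from -0.090 to 0.099 and P2ry12 from -0.057 to 0.013. For bPYX+NT3 against naïve the recorded titles gave -0.31 for Adora1 and -0.19 for Panx2, and neither passed in 1 fit over the 3 groups. The covariate gave 0.24 for Adora1, which still passed, and 0.17 for Panx2, which did not.

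The replicate numbers of the titles were not used as pairs in the main fits. Within each group they follow the rising order of the rat numbers, and the study names no pairing of rats. Of 6 same-numbered pairs, 2, 5 and 3 deviated together with r over 0.1. In the same order 1, 3 and 1 of 6 rats were most like the rat of their own number. For bPYX+NT3 against naïve, where r reached 0.56, these values do not exclude a pairing. With the replicate block 0, 0 and 1 of the other members passed, and the number of all genes with p under 0.05 moved from 377 to 316, from 703 to 2962 and from 201 to 130. Without rat 57 that number was 595 for bPYX+GFP against naïve and 2291 between the injured groups, and without rats 11 and 57 it was 1462 between the injured groups. It was 848 for bPYX+GFP against naïve with the covariate, by which 17 genes passed the adjustment, and 315 between the injured groups with no filter. For bPYX+NT3 against naïve it was 365 without rat 11 and 1387 without rat 23, and between the injured groups 95 without rat 11. Depth limits P2ry6 most, with 8 to 41 reads per rat.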
